A study of Homo sapiens with 12 samples.

Results

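The 41 genes described here serve protein folding in human kidney tubule cells: 23 belong to the unfolded protein response of the endoplasmic reticulum (ER), and 18 are heat shock genes of the cytosol and the mitochondria. They were taken by gene symbol from a list of ER chaperones, stress sensors, ER degradation genes and heat shock proteins. All 41 were found among the 26334 gene symbols of the deposited table, and all 41 were among the 12649 genes tested, those that reached 1 FPKM in at least 3 of 12 libraries. FPKM scales the fragments of a gene by transcript length and by the size of the library, so levels can be compared between genes per length.

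Unfolded proteins in the ER activate the sensors IRE1 (gene ERN1), ATF6 and PERK (gene EIF2AK3). IRE1 splices the XBP1 mRNA into the form that encodes an active transcription factor, ATF6 is cut to release another, and together they raise genes of ER chaperones and of ER-associated degradation, the route by which misfolded proteins leave the ER for the proteasome. PERK slows translation and favours ATF4 and its target DDIT3. In the cytosol, HSF1 is held inactive by chaperones and, when unfolded proteins occupy these, raises genes of the HSP70, HSP90, HSP40 and small heat shock families. Proximal tubule cells are known to use both responses in ischaemic and toxic injury. Splicing of XBP1, cleavage of ATF6 and protein activity were not measured in values summed per gene.

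The study asked how transcription driven by PRCC-TFE3, a fusion oncogene of translocation renal carcinoma, changes when CDK8 and CDK19, the kinases of the Mediator complex, are inhibited. Every group was HK-2, an immortalized line of human proximal tubule epithelium, carrying a doxycycline (Dox) inducible PRCC-TFE3 gene and kept under puromycin and blasticidin. After 48 h there were 4 groups with 3 libraries each, labelled biological replicates: Dox plus the CDK8/19 inhibitor MSC2530818 at 100 nM, Dox alone, the inhibitor alone, and the DMSO vehicle. Cells without the fusion gene were not given Dox here, so an effect of Dox and an effect of the fusion cannot be told apart, and all libraries come from 1 line.

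TFE3, whose values include the fusion transcript, stood at 87.6, 83.2 and 81.7 FPKM in Dox plus inhibitor cells and at 149, 154 and 146 FPKM in Dox cells, against 29.7, 27.4 and 26.3 FPKM with the inhibitor alone and 38.9, 35.8 and 32.7 FPKM in vehicle cells. In this and the following comparisons a mean stands with its SD over 3 libraries, and a log2 change with its SE. In Dox cells TFE3 was lower with the inhibitor (-0.82 ± 0.07, adjusted p = 5e-06), and the part of this in the results below was not tested. Of 14 proximal tubule markers only GGT1 and PAX8 averaged at least 1 FPKM, and the transporters SLC22A6 and SLC22A8 were at 0 in all 12 libraries. Of 6 epithelial markers 5 were present (EPCAM, KRT7, KRT8, KRT18 and KRT19), whereas CDH1 did not exceed 0.01 FPKM. Their summed level was 505 to 548 FPKM in Dox plus inhibitor, 437 to 458 FPKM in Dox, 667 to 801 FPKM in inhibitor and 560 to 652 FPKM in vehicle cells, so it moved with the groups, and its part in the results was not tested. The proximal tubule list summed to 148 to 158 FPKM in Dox plus inhibitor, 127.7 to 139.5 FPKM in Dox, 172 to 177 FPKM in inhibitor and 122 to 145 FPKM in vehicle cells. Markers of endothelium (0 of 5) and of distal tubule and collecting duct (0 of 6) did not average 1 FPKM. The podocyte list had PODXL and SYNPO at this level (2 of 5). It summed to 19.4 to 21.1, 17.4 to 18.1, 25.25 to 27.3 and 18.2 to 21.5 FPKM in the same order of groups. The leukocyte list had CD68 at this level (1 of 5), and the fibroblast list COL1A1 and LUM (2 of 6, with COL1A2 at 0). The leukocyte list summed to 29.8 to 34.0 FPKM in Dox plus inhibitor, 53.5 to 59.0 FPKM in Dox, 25.6 to 31.1 FPKM in inhibitor and 34.4 to 42.6 FPKM in vehicle cells. The fibroblast list summed to 5.54 to 7, 10.6 to 11.9, 4.74 to 7.03 and 6.17 to 6.77 FPKM in the same order of groups. Both sums were thus highest in Dox cells, the leukocyte sum through CD68 alone (56.0 ± 2.82 FPKM in Dox, 38.6 ± 4.12 FPKM in vehicle cells). The fibroblast sum rose through LUM (7.48 ± 0.41 FPKM in Dox, 2.17 ± 0.746 FPKM in vehicle cells). COL1A1 went the other way, at 3.75 ± 0.265 FPKM in Dox and 4.33 ± 0.476 FPKM in vehicle cells. The part of these markers in the results was not tested. FPKM sums per library lay between 429208 and 473950, and the read depth behind them is unknown.

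Several libraries stood apart by the base composition of their transcripts. Replicate 1 of the vehicle group had lower values than replicates 2 and 3 for genes of low GC content (Spearman rho with GC 0.728 over 11996 genes), and the same held for replicate 1 of the inhibitor group (0.596) and of the Dox plus inhibitor group (0.529). Replicate 3 deviated the other way (-0.749 in vehicle, -0.618 in inhibitor and -0.517 in Dox plus inhibitor cells), and the Dox libraries lay between -0.279 and 0.38. Among the 41 genes, vehicle replicate 1 lay below 0.8 of the mean of replicates 2 and 3 for 7: HSP90B1, DNAJC3, SEL1L, HSPH1, HSPD1, HSP90AA1 and DNAJB4. Inhibitor replicate 1 did so for HSP90B1, DNAJB9, DNAJC3, SEL1L, HSPH1, HSP90AA1 and DNAJB4. Across the 41 genes the log2 ratio of replicate 1 to the other replicates had a Pearson r of 0.57 with GC content in inhibitor cells and 0.68 in vehicle cells, a description over genes that share the same libraries. The changes themselves also ran with GC content: rho was -0.385 for Dox against vehicle, -0.556 for Dox with inhibitor against inhibitor, 0.223 for inhibitor against vehicle and 0.088 for inhibitor with Dox against Dox. Values after removal of the trend on GC and transcript length are therefore given beside the calls they end.

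**Figure D1:**
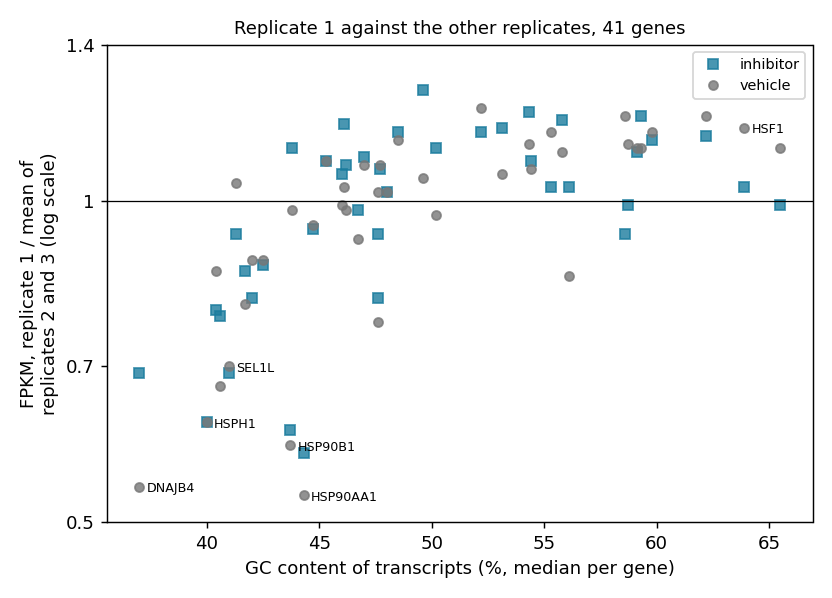
Replicate 1 of the inhibitor group (squares) and of the vehicle group (circles) divided by the mean of replicates 2 and 3, on a log axis, against the GC content of each of the 41 genes. Ratios reach down to 0.58 in inhibitor cells and 0.53 in vehicle cells, both for HSP90AA1, and the low ratios lie at low GC content.

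With the inhibitor and no Dox, 6 of the 41 genes were higher and 12 lower than in vehicle cells, beside 11.7% and 26.3% of all tested genes called in those directions, so the shares lay near the background. In these bulk samples, fewer cells of a type and less RNA per cell cannot be told apart. A gene is called here when its adjusted p lies under 0.05 in a limma model of log2(FPKM + 1) across all tested genes. Of the 23 ER genes 5 were higher and 2 lower, with a median log2 change of 0.04, and of the 18 heat shock genes 1 was higher and 10 lower, with a median of -0.29, beside -0.12 over all tested genes. Because that median over all genes moved from -0.12 to -0.01 after median-ratio scaling of the libraries, changes with the inhibitor are also given relative to this shift. After scaling, 9 ER genes were higher and 1 lower, and 2 heat shock genes were higher and 5 lower. Over the 41 the balance turned to 11 higher and 6 lower. ERN1 was not among the genes tested after this scaling, so all counts after it leave ERN1 out. Over all tested genes the calls were 1479 higher and 3323 lower, and 2206 higher and 1811 lower after scaling.

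Added to Dox, the inhibitor gave 5 higher and 5 lower among the 41, beside 11.3% and 20.8% of all tested genes. All 5 that rose were ER genes and all 5 that fell were heat shock genes. The medians were 0.03 for the ER genes and -0.11 for the heat shock genes, beside -0.08 over all tested genes. After median-ratio scaling 9 were higher (7 of them ER genes) and 3 lower, and over all tested genes 1434 higher and 2629 lower calls became 1949 and 1649. Without Dox replicate 1 the lower count among the 41 was 3. The inhibitor changes with and without Dox, which come from separate libraries, had a Pearson r of 0.82 over the 41 genes and 0.72 over all tested genes, with the same sign in 36 of 41 and in 10164 of 12649.

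**Figure D2:**
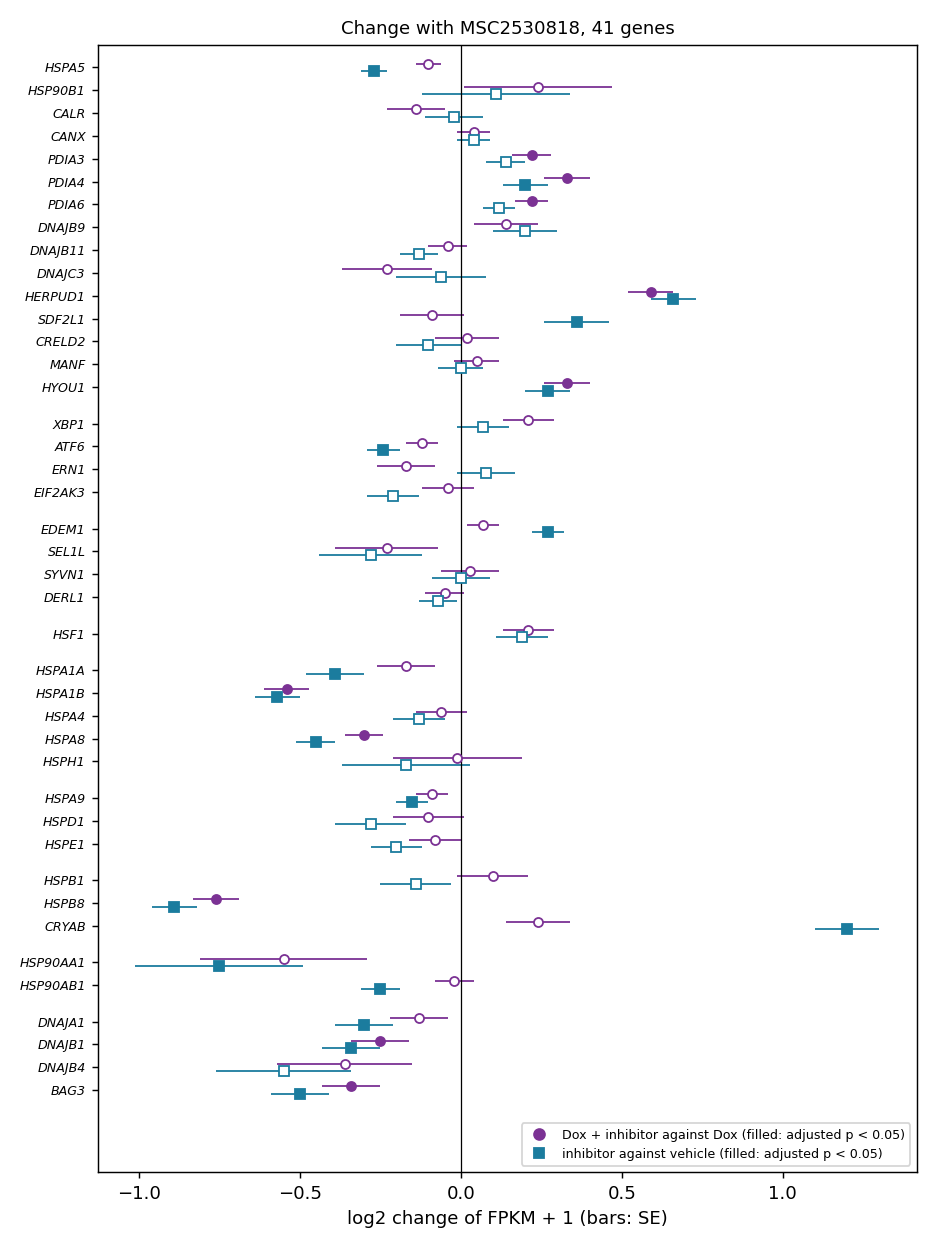
Change with MSC2530818 of the 41 genes as log2 change of FPKM + 1 with its SE, in Dox plus inhibitor against Dox cells (circles) and in inhibitor against vehicle cells (squares), ordered by role; filled symbols passed an adjusted p of 0.05. HERPUD1, HYOU1 and PDIA4 are filled on the right in both comparisons, and HSPB8, HSPA1B, HSPA8, BAG3 and DNAJB1 on the left in both. CRYAB lies at 1.20 without Dox and 0.24 with it.

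With Dox alone, 7 of the 41 genes were called, and 10 with Dox in the presence of the inhibitor. Against vehicle 4 were higher (CANX, ATF6, EDEM1 and HSPB8) and 3 lower (HERPUD1, XBP1 and HSP90AB1), beside 10.6% and 7.31% of all tested genes, so the shares lay near the background. In the presence of the inhibitor 6 were higher and 4 lower with Dox, beside 12.2% and 6.06% of all tested genes. The higher count against vehicle was 1 or 2 when any 1 of vehicle replicates 1 and 2 or Dox replicates 1 to 3 was left out, and the lower count was 7 without vehicle replicate 3, 6 without inhibitor replicate 1 and 1 without Dox replicate 3. With the inhibitor the higher count was 3 without Dox plus inhibitor replicate 2. Median-ratio scaling gave 1 higher and 10 lower against vehicle and 3 higher and 6 lower in the presence of the inhibitor, while over all tested genes the calls changed from 1344 higher and 925 lower to 999 and 1404, and from 1537 and 767 to 635 and 1250.

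Same-numbered libraries of the inhibitor groups with and without Dox deviated together, with correlations of 0.549, 0.133 and 0.337. Pairing and the shared GC trend of replicates 1 and 3 cannot be told apart in these libraries. A model with the replicate number as a block called 12 of the 41 higher and 6 lower in that comparison. Over all 12649 tested genes the same block called 3351 higher and 1197 lower. The block added DNAJC3 (0.25, adjusted p = 0.048), SEL1L (0.39, adjusted p = 0.012), DERL1 (0.15, adjusted p = 0.047), HSPH1 (0.39, adjusted p = 0.043), HSP90AA1 (0.52, adjusted p = 0.031) and DNAJB4 (0.45, adjusted p = 0.031) to the higher genes. To the lower genes it added HYOU1 (-0.15, adjusted p = 0.048) and HSF1 (-0.20, adjusted p = 0.039). These values are log2 changes and adjusted p from the blocked limma model. With the GC and length trend removed under the same block, 2 of the 41 were higher and 8 lower, beside 3137 of 11996 genes called in either direction. All 6 higher genes added by the block then missed the threshold: DNAJC3 (-0.02, adjusted p = 0.82), SEL1L (0.14, adjusted p = 0.064), DERL1 (0.01, adjusted p = 0.92), HSPH1 (0.11, adjusted p = 0.34), HSP90AA1 (0.34, adjusted p = 0.074) and DNAJB4 (0.13, adjusted p = 0.32). HSF1 missed it too (-0.11, adjusted p = 0.12), and HYOU1 passed (-0.13, adjusted p = 0.03). The interaction subtracts the effect of Dox in uninhibited cells from its effect in inhibited cells. It was called for CRYAB alone among the 41, beside 0.909% of all tested genes called higher and 1.91% lower, and for 2 genes when Dox replicate 1 was left out.

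**Figure D3:**
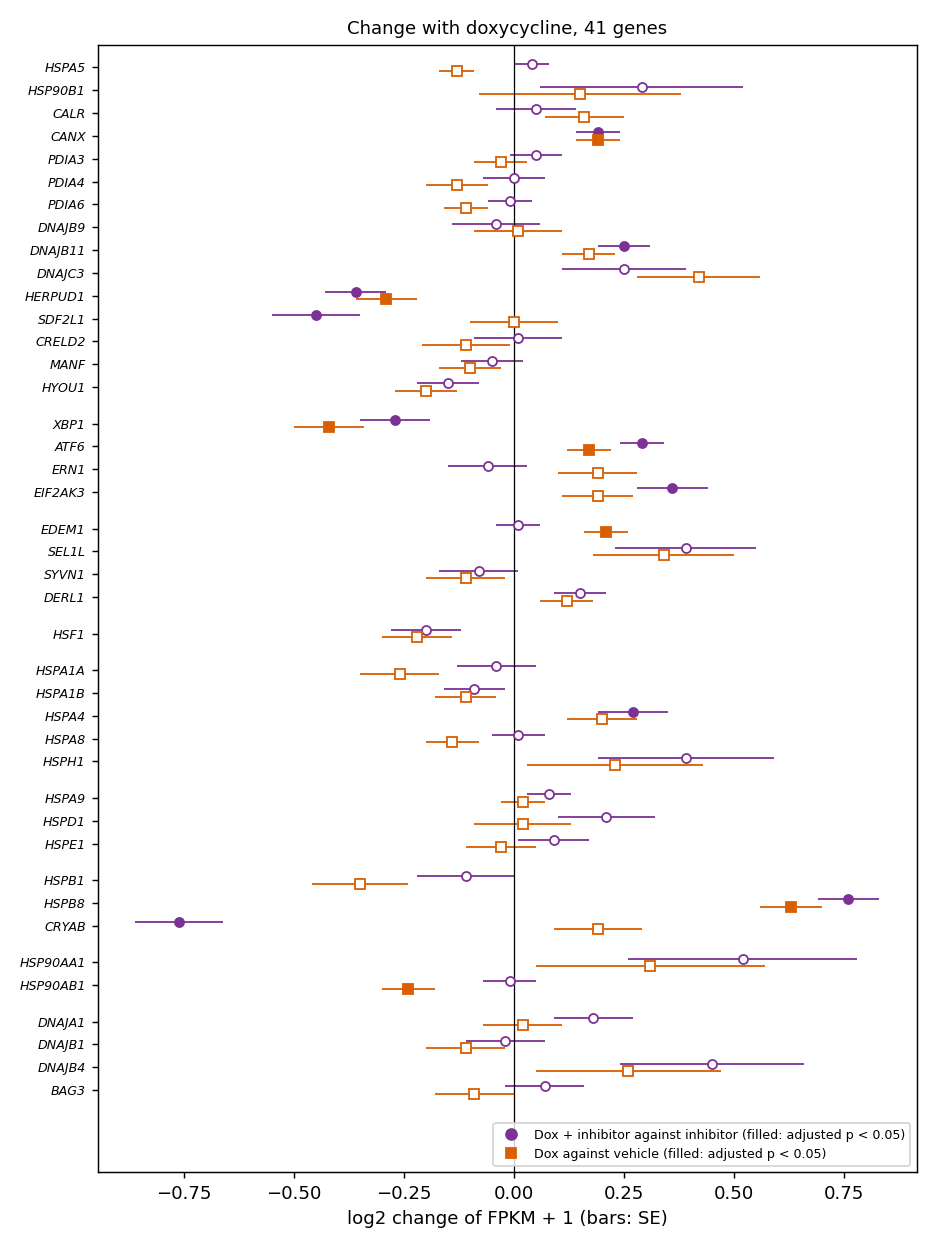
Change with Dox of the 41 genes as log2 change of FPKM + 1 with its SE, in Dox plus inhibitor against inhibitor cells (circles) and in Dox against vehicle cells (squares), ordered by role; filled symbols passed an adjusted p of 0.05. HSPB8 lies on the right at 0.76 and 0.63, HERPUD1 and XBP1 on the left in both comparisons, and CRYAB at -0.76 with the inhibitor and 0.19 without it.

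Of the ER genes that rose with the inhibitor alone, HERPUD1, HYOU1 and SDF2L1 carry the same promoter element, and SDF2L1 did not rise in Dox cells. HERPUD1 encodes a membrane protein that assists ER-associated degradation, HYOU1 the large ER chaperone GRP170, and SDF2L1 a cofactor of the ER chaperone BiP. The element, ERSE-II, was searched on both strands as ATTGG, 1 base of any kind and CCACG, in windows of 250 bases before to 50 after each RefSeq start (GRCh38.p14). It was found in 0.0541% of 35116 promoters and in 3 of the 21 ER genes that had a promoter in the table. A gene was counted when any of its promoters matched, here and for the other elements. The 37 genes with an entry had 50 promoters, so shares of genes and shares of promoters are unlike measures. The windows below hold the matches in capitals, read 5′ to 3′ on the gene's strand, where a match on the other strand reads CGTGG, 1 base and CCAAT.
HERPUD1, chr16:56931992-56932047, plus strand: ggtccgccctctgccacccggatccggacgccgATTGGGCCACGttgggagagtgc
HYOU1, chr11:119057265-119057405, minus strand: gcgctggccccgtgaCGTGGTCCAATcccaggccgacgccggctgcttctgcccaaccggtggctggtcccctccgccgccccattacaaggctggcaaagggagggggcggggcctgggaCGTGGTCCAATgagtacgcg
SDF2L1, chr22:21642087-21642152, plus strand: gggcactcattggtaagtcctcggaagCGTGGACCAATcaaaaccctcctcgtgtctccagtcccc
HYOU1 thus has 2 matches, the upstream of which overlaps the only match of the UPRE core (TGACGTG) among the 21 ER genes. A match is a description of these letters and was not tested as a binding site.

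HERPUD1 had the largest change of the ER genes in both inhibitor comparisons. It stood at 72.2, 68.5 and 70.4 FPKM in Dox plus inhibitor cells and at 46.7, 46.5 and 46.0 FPKM in Dox cells. With the inhibitor alone it stood at 100.1, 88.8 and 83.1 FPKM, against 62.0, 54.0 and 55.0 FPKM in vehicle cells. In neither pair did the groups overlap, and the inhibitor libraries were the higher ones each time. The log2 change with the inhibitor was 0.59 ± 0.07 in Dox cells (limma, adjusted p = 9.9e-05) and 0.66 ± 0.07 without Dox (adjusted p = 3.7e-05), and 0.78 after median-ratio scaling. Dox lowered it by contrast: the change was -0.36 ± 0.07 in the presence of the inhibitor (adjusted p = 0.0069) and -0.29 ± 0.07 without it (adjusted p = 0.017). The call without inhibitor ended when any 1 of vehicle replicate 1 or Dox replicates 2 and 3 was left out (all such values between -0.32 and -0.23, largest adjusted p = 0.06).

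HYOU1 rose with the inhibitor in both settings. It stood at 46.0, 43.6 and 41.9 FPKM in Dox plus inhibitor cells against 34.4, 36.0 and 33.7 FPKM in Dox cells, and at 49.4, 49.2 and 47.2 FPKM with the inhibitor against 44.3, 39.9 and 36.4 FPKM in vehicle cells. In both pairs the libraries with the inhibitor were the higher ones, without overlap. The change was 0.33 ± 0.07 in Dox cells (adjusted p = 0.0038) and 0.27 ± 0.07 without Dox (adjusted p = 0.009). The second call ended when only the inhibitor and vehicle libraries were fitted (adjusted p = 0.051).

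SDF2L1 was highest in the cells that received the inhibitor alone. It stood at 14.6, 13.97 and 14.5 FPKM in Dox plus inhibitor cells, 12.8, 16.3 and 17.4 FPKM in Dox cells, 19.8, 20.4 and 19.7 FPKM with the inhibitor and 16.6, 13.9 and 15.8 FPKM in vehicle cells. The 3 inhibitor libraries lay above all other libraries. The inhibitor raised it without Dox (0.36 ± 0.10, adjusted p = 0.014), a call that ended without vehicle replicate 2 (adjusted p = 0.062), and Dox lowered it in the presence of the inhibitor (-0.45 ± 0.10, adjusted p = 0.01). In Dox cells the change with the inhibitor was -0.09 ± 0.10 (adjusted p = 0.51), and -0.23 without replicate 1 of all groups (adjusted p = 0.038). The interaction of SDF2L1 was -0.45 ± 0.14 and missed the threshold (adjusted p = 0.13), but passed when replicate 1 of all groups was left out (-0.64, adjusted p = 0.013).

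**Figure D4:**
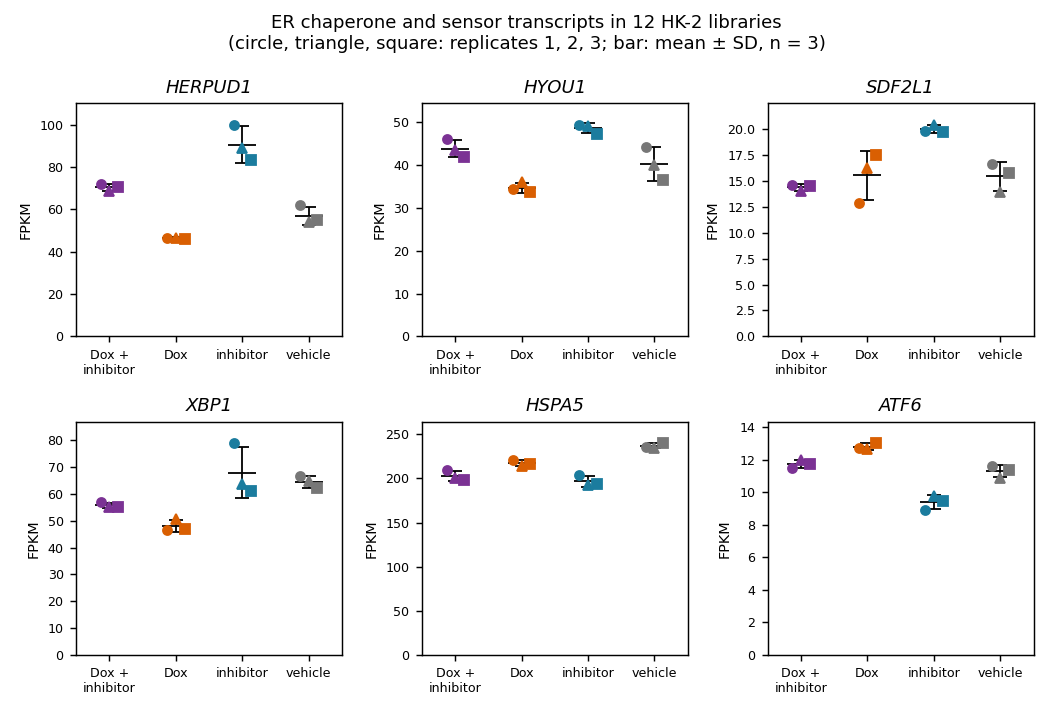
FPKM of HERPUD1, HYOU1, SDF2L1, XBP1, HSPA5 and ATF6 in the 12 libraries, with Dox plus inhibitor, Dox, inhibitor and vehicle from left to right; symbols are replicates and bars the mean ± SD of 3 libraries. HERPUD1 averaged 70.4 FPKM in Dox plus inhibitor and 90.7 FPKM in inhibitor cells, above the 46.4 and 57.0 FPKM of Dox and vehicle cells, whereas HSPA5 was highest in vehicle cells at 237 FPKM.

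HSPA5, which encodes BiP, the central HSP70 of the ER and the usual marker of the unfolded protein response, did not rise in any comparison. Its promoter holds the other ER stress element, ERSE, searched as CCAAT, 9 bases of any kind and CCACG. ERSE was found in 0.0769% of all promoters, in 7 of the 21 ER genes (CALR, CANX, CRELD2, HSP90B1, HSPA5, PDIA6 and XBP1) and in 0 of 16 heat shock genes with a promoter in the table. The windows of 3 of these genes show how far the elements resemble those of HERPUD1 and HYOU1 above.
HSPA5, chr9:125241363-125241443, minus strand: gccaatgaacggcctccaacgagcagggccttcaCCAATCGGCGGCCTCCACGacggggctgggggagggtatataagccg
PDIA6, chr2:10812845-10812895, minus strand: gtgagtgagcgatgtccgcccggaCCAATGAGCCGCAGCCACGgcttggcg
XBP1, chr22:28800598-28800659, minus strand: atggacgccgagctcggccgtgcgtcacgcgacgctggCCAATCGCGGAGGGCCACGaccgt
CCAAT and CCACG lie on the same strand in ERSE and on opposite strands in ERSE-II, with different spacing. With the inhibitor and no Dox, all 3 genes with ERSE-II were higher, and 2 of the 18 ER genes without it. Of the 7 with ERSE 0 were higher and HSPA5 was lower, while 5 of the 14 without ERSE were higher. Over all tested genes 11.7% were higher. In the presence of Dox 2 of 3 genes with ERSE-II and 2 of 18 without it were higher with the inhibitor. For ERSE these were 1 of 7 (PDIA6) and 3 of 14, beside 11.3% of all tested genes. After median-ratio scaling CANX (0.16, adjusted p = 0.023) and PDIA6 (0.24, adjusted p = 0.0024) also passed without Dox, so that 2 of 7 were higher. Without ERSE 6 of 14 were then higher, and without ERSE-II 5 of 18, beside 2206 higher calls over all tested genes. The genes without an element include ERN1, which was not tested after this scaling. In Dox cells XBP1 then joined PDIA6 (2 of 7), and the counts of genes with ERSE-II were as before. Without ERSE 4 of 14 were higher there, and without ERSE-II 4 of 18, beside 1949 higher calls over all tested genes. After removal of the GC and length trend, 2 of 7 with ERSE and 6 of 14 without it were higher without Dox. In Dox cells these were 3 of 7 (CANX, PDIA6 and XBP1) and 4 of 14. For ERSE-II they were 3 of 3 and 5 of 18 without Dox, and 2 of 3 and 5 of 18 in Dox cells. Over all genes of that fit, 2368 were higher without Dox and 2272 in Dox cells. A gene counted as without an element had no exact match in its window. The counts with and without an element were not compared by a test.

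HSPA5 stood at 209, 201 and 198 FPKM in Dox plus inhibitor cells and at 221, 214 and 217 FPKM in Dox cells. With the inhibitor alone it stood at 204, 192 and 194 FPKM, against 236, 235 and 240.2 FPKM in vehicle cells. The vehicle libraries were above all others. The inhibitor lowered it without Dox (-0.27 ± 0.04, adjusted p = 0.00063, and -0.15 after median-ratio scaling). The change was -0.10 ± 0.04 in Dox cells (adjusted p = 0.099), and Dox against vehicle gave -0.13 ± 0.04 (adjusted p = 0.071). The change for Dox against vehicle passed after median-ratio scaling (-0.19, adjusted p = 0.015) and after removal of the GC and length trend (-0.19, adjusted p = 0.029). After quantile normalization it missed the threshold (-0.06, adjusted p = 0.32).

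The protein disulfide isomerases, which form and rearrange disulfide bonds in the ER, rose with the inhibitor in Dox cells. PDIA4 averaged 96.8 ± 6.50 FPKM in Dox plus inhibitor cells and 77.0 ± 2.51 FPKM in Dox cells (0.33 ± 0.07, adjusted p = 0.005). PDIA6 averaged 262 ± 1.52 FPKM against 225 ± 4.48 FPKM in the same groups (0.22 ± 0.05, adjusted p = 0.0039). PDIA3, which works on glycoproteins, averaged 275 ± 16.8 FPKM against 236 ± 3.95 FPKM (0.22 ± 0.06, adjusted p = 0.017). The PDIA3 call ended when either Dox replicate 3 or replicate 1 of Dox plus inhibitor was left out (0.20 and 0.17) and after removal of the GC and length trend (0.26, adjusted p = 0.065). Without Dox PDIA4 passed, at 97.3 ± 9.09 FPKM with the inhibitor against 84.3 ± 3.33 FPKM in vehicle cells (0.20 ± 0.07, adjusted p = 0.045). That call ended without vehicle replicate 2 or 3, inhibitor replicate 1, Dox replicate 1, 2 or 3, or Dox plus inhibitor replicate 2 or 3 (values between 0.13 and 0.25). PDIA3 (0.14 ± 0.06, adjusted p = 0.078) and PDIA6 (0.12 ± 0.05, adjusted p = 0.056) missed the threshold there and passed it after median-ratio scaling (0.27, adjusted p = 0.0073, and 0.24, adjusted p = 0.0024).

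CANX, the membrane-bound lectin chaperone calnexin, was higher with Dox in both settings. It averaged 161 ± 2.80 FPKM in Dox plus inhibitor cells against 142 ± 2.32 FPKM with the inhibitor (0.19 ± 0.05, adjusted p = 0.022), and 157 ± 1.67 FPKM in Dox cells against 138 ± 7.87 FPKM in vehicle cells (0.19 ± 0.05, adjusted p = 0.02). Both calls ended after median-ratio scaling (0.09 and 0.13) and when only the compared groups were fitted. The first also ended after quantile normalization (0.20, adjusted p = 0.065) and after removal of the GC and length trend (0.07). It ended too without inhibitor replicate 1 or 2 or Dox plus inhibitor replicate 2 or 3. The second ended without vehicle replicate 1 or 2 or any 1 Dox library (0.15 to 0.23).

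DNAJB11, an HSP40 partner of BiP, was higher with Dox in the presence of the inhibitor, at 96.3 ± 7.73 FPKM in Dox plus inhibitor cells against 80.6 ± 1.33 FPKM with the inhibitor (0.25 ± 0.06, adjusted p = 0.012). The call ended after median-ratio scaling (0.16, adjusted p = 0.098).

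The other 6 ER chaperones and cofactors passed in none of the 4 comparisons. CALR, the soluble lectin chaperone calreticulin, had the highest level of the 41 genes, at 1025 ± 85.5 FPKM in Dox plus inhibitor, 1125 ± 29.7 FPKM in Dox, 992 ± 113 FPKM in inhibitor and 1006 ± 83.7 FPKM in vehicle cells. Without replicate 1 of all groups its changes were called for inhibitor with Dox against Dox (-0.21, adjusted p = 0.0074) and for Dox against vehicle (0.23, adjusted p = 0.0088). HSP90B1, the HSP90 of the ER, averaged between 380 and 486 FPKM over the groups, with an SE of 0.23 on each log2 change. Its replicate 1 was at 0.61 of the other replicates in inhibitor cells and 0.59 in vehicle cells. Without replicate 1 of all groups its change with the inhibitor in Dox cells was 0.32 (adjusted p = 0.024). DNAJC3, an HSP40 that also inhibits PERK, averaged 10.9 ± 0.506 FPKM in Dox cells and 8.01 ± 1.74 FPKM in vehicle cells (0.42 ± 0.14, adjusted p = 0.058), and without replicate 1 of all groups the change was 0.26 (adjusted p = 0.041). DNAJB9, a further HSP40 of the ER, averaged 5.58 to 6.57 FPKM. After removal of the GC and length trend it was called in all 4 comparisons, lower with Dox (-0.31 in inhibited cells, adjusted p = 0.0022, and -0.19 in uninhibited cells, adjusted p = 0.027) and higher with the inhibitor (0.25, adjusted p = 0.0034, in Dox cells and 0.38, adjusted p = 0.00019, without Dox). CRELD2 averaged 15.6 to 16.9 FPKM and MANF, a secreted ER stress protein, 42.9 to 45.9 FPKM.

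Of the sensors, ERN1 was at the cut for testing, 1 FPKM in at least 3 libraries, and ATF6 and EIF2AK3 were at low levels. ERN1 met the cut only through Dox replicates 1 and 2 and inhibitor replicate 3. Its place among the tested genes thus rests in part on the group in which it was highest. After median-ratio scaling ERN1 was not tested. ERN1 stood at 0.91, 0.81 and 0.78 FPKM in Dox plus inhibitor cells, 1.24, 1.01 and 0.94 FPKM in Dox cells, 0.93, 0.80 and 1.00 FPKM with the inhibitor and 0.72, 0.88 and 0.82 FPKM in vehicle cells. The 3 Dox libraries lay above the vehicle and the Dox plus inhibitor libraries, and the changes of 0.19 ± 0.09 for Dox against vehicle and -0.17 ± 0.09 for inhibitor with Dox against Dox both missed the threshold (adjusted p = 0.16 for each).

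ATF6 stood at 11.45, 11.96 and 11.73 FPKM in Dox plus inhibitor cells and at 12.69, 12.64 and 13.02 FPKM in Dox cells. It stood at 8.91, 9.74 and 9.48 FPKM with the inhibitor, against 11.6, 10.9 and 11.4 FPKM in vehicle cells. The inhibitor libraries were the lowest and the Dox libraries the highest, with no overlap between groups in any of the 4 comparisons. Dox raised it in the presence of the inhibitor (0.29 ± 0.05, adjusted p = 0.0037) and, at the threshold, without it (0.17 ± 0.05, adjusted p = 0.046), and the inhibitor lowered it without Dox (-0.24 ± 0.05, adjusted p = 0.0036). ATF6 transcripts have a GC content of 41.3%, and after removal of the GC and length trend these changes were 0.04, 0.00 and -0.12 and none was called (adjusted p = 0.83, 0.98 and 0.38). The call for Dox against vehicle also ended under both rescalings and when any 1 of the 3 vehicle, 3 Dox or 3 Dox plus inhibitor libraries or inhibitor replicate 2 or 3 was left out (0.14 to 0.19).

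EIF2AK3 was likewise higher with Dox. It stood at 16.9, 18.3 and 17.4 FPKM in Dox plus inhibitor cells, 17.6, 18.7 and 17.9 FPKM in Dox cells, 11.6, 13.9 and 14.9 FPKM with the inhibitor and 14.4, 16.3 and 16.5 FPKM in vehicle cells. Each library with Dox was above each library without it. Dox raised it in the presence of the inhibitor (0.36 ± 0.08, adjusted p = 0.015), while Dox against vehicle gave 0.19 ± 0.08 (adjusted p = 0.15). The call ended without Dox plus inhibitor replicate 2 (values without 1 library between 0.27 and 0.43) and after removal of the GC and length trend (0.12, adjusted p = 0.13).

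XBP1 fell with Dox. It stood at 57.0, 55.2 and 55.0 FPKM in Dox plus inhibitor cells against 79.1, 63.6 and 61.3 FPKM with the inhibitor, and at 46.7, 50.5 and 46.9 FPKM in Dox cells against 66.6, 64.8 and 62.3 FPKM in vehicle cells. All libraries with Dox were below all libraries without it. The change was -0.42 ± 0.08 against vehicle (adjusted p = 0.0047), which passed under each of 25 alternatives with values from -0.48 to -0.38. In the presence of the inhibitor it was -0.27 ± 0.08 (adjusted p = 0.042), and this call ended without any 1 of vehicle replicate 2, the 3 Dox, the 3 Dox plus inhibitor or inhibitor replicates 1 and 2 (-0.34 to -0.16). The change with the inhibitor in Dox cells was 0.21 ± 0.08 and missed the threshold (adjusted p = 0.073). It passed after median-ratio scaling (0.30, adjusted p = 0.022) and after removal of the GC and length trend (0.27, adjusted p = 0.0058). Without Dox the inhibitor gave 0.07 ± 0.08 (adjusted p = 0.56).

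Among the genes of ER-associated degradation, EDEM1, a lectin that hands misfolded glycoproteins to the export machinery, was higher in every treated group than in vehicle cells. It averaged 11.6 ± 0.372 FPKM with Dox plus inhibitor, 10.9 ± 0.291 FPKM with Dox, 11.5 ± 0.522 FPKM with the inhibitor and 9.35 ± 0.148 FPKM in vehicle cells. The inhibitor raised it without Dox (0.27 ± 0.05, adjusted p = 0.0021), and Dox raised it against vehicle (0.21 ± 0.05, adjusted p = 0.019), a call that ended under both rescalings and without vehicle replicate 2 or Dox replicate 1 or 3 (0.19 to 0.22). The inhibitor change in Dox cells was 0.07 ± 0.05 (adjusted p = 0.33), and the interaction of -0.20 ± 0.07 missed the threshold (adjusted p = 0.24) except after removal of the GC and length trend (-0.26, adjusted p = 0.025).

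SEL1L, SYVN1 and DERL1, the core of the degradation complex, passed in none of the 4 comparisons without the block. SEL1L, the adaptor of that complex, averaged 10.5 to 16.4 FPKM over the groups, SYVN1, its ubiquitin ligase HRD1, 10.1 to 11.0 FPKM, and the channel protein gene DERL1 28.9 to 33.1 FPKM. SEL1L was called lower with the inhibitor alone when replicate 1 of all groups was left out (-0.28, adjusted p = 0.015), and its change with all libraries was -0.28 ± 0.16 (adjusted p = 0.18). For Dox in the presence of the inhibitor, SEL1L and DERL1 passed without replicate 1 of all groups (0.32, adjusted p = 0.018, and 0.19, adjusted p = 0.027), as they did with the block, and neither passed after removal of the GC and length trend (0.14 and 0.01).

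HSF1, the transcription factor of the heat shock response, missed the threshold in the 4 comparisons as deposited and passed it in all 4 after median-ratio scaling. It stood at 33.5, 33.8 and 32.0 FPKM in Dox plus inhibitor cells, 28.8, 27.4 and 29.5 FPKM in Dox cells, 39.0, 40.0 and 35.7 FPKM with the inhibitor and 37.2, 33.8 and 29.4 FPKM in vehicle cells. The inhibitor libraries were higher than the Dox plus inhibitor libraries, and these higher than the Dox libraries, while the vehicle libraries overlapped the other groups. The changes with the inhibitor were 0.21 ± 0.08 in Dox cells (adjusted p = 0.066) and 0.19 ± 0.08 without Dox (adjusted p = 0.073). The changes with Dox were -0.20 ± 0.08 in the presence of the inhibitor (adjusted p = 0.091) and -0.22 ± 0.08 without it (adjusted p = 0.081). After scaling, the inhibitor changes were 0.29 (adjusted p = 0.018) and 0.31 (adjusted p = 0.011) and the Dox changes -0.30 (adjusted p = 0.029) and -0.27 (adjusted p = 0.033). After removal of the GC and length trend all but the Dox change in the presence of the inhibitor (-0.11, adjusted p = 0.12) passed. HSF1 transcripts have a GC content of 63.9%.

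Of the 5 cytosolic HSP70 and HSP110 genes 2 fell with the inhibitor in Dox cells and 3 without Dox. The heat shock element, to which HSF1 binds, was searched as GAA, 2 bases, TTC, 2 bases and GAA, or its reverse, and was found in 0.49% of all promoters and in 5 of the 16 heat shock genes (DNAJA1, HSP90AA1, HSP90AB1, HSPA8 and HSPD1). Windows of a pair of these genes are shown with matches in capitals. HSPA8 has another match, at -55 to -43 from its start, outside the window shown.
HSPA8, chr11:123062353-123062386, minus strand: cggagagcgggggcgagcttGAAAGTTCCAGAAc
HSP90AB1, chr6:44247763-44247853, plus strand: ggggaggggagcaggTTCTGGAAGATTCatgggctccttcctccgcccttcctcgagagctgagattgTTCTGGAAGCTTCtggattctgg
Only this exact form within the window was counted, so a gene without a match may still hold a less exact or more distant element. With the inhibitor and no Dox 4 of the 5 genes with a match were lower, and 6 of the 11 without one, beside 26.3% of all tested genes. After median-ratio scaling these were 1 of 5 (HSPA8) and 4 of 11. In Dox cells 1 of 5 and 4 of 11 were lower with the inhibitor, beside 20.8%, and 1 of 5 and 2 of 11 after scaling. After removal of the GC and length trend they were 3 of 5 and 6 of 11 without Dox, and 1 of 5 and 4 of 11 in Dox cells. Over all genes of that fit, 2795 were lower without Dox and 2488 in Dox cells. The E-box CACGTG, the core of the sites of TFE3, was found in 7.26% of all promoters and in 7 of 37 genes (CANX, DNAJB9, HERPUD1, HSP90B1, HSPA9, HSPD1 and HSPE1), of which CANX was called higher and HERPUD1 lower for Dox against vehicle. The longer form, with T before and A after, was found in 0.98% of promoters and in 0 of the 37. The cyclic AMP element (TGACG followed by TCA) was found in 1.85% of promoters and in 1 of the 37, HSP90AB1, which also held the UPRE core, present in 1.97% of promoters.

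HSPA8, the constitutive HSP70, fell with the inhibitor in both settings. It stood at 777, 707 and 717 FPKM in Dox plus inhibitor cells against 922, 916 and 871 FPKM in Dox cells, and at 776, 709.6 and 699 FPKM with the inhibitor against 1048, 965 and 973 FPKM in vehicle cells. The 6 libraries with the inhibitor were below the 6 without it. The log2 change was -0.30 ± 0.06 in Dox cells (adjusted p = 0.003) and -0.45 ± 0.06 without Dox (adjusted p = 0.00017), and after median-ratio scaling -0.21 (adjusted p = 0.026) and -0.33 (adjusted p = 0.0022). The annotation names 17 pseudogenes of HSPA8, so its values may hold reads shared with near-identical copies.

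HSPA1A and HSPA1B, neighbouring genes on chromosome 6 that encode the stress-inducible HSP70, are nearly identical, and the division of reads between them is uncertain. HSPA1B stood at 48.6, 45.1 and 43.2 FPKM in Dox plus inhibitor cells against 71.2, 67.5 and 62.5 FPKM in Dox cells, and at 48.1, 48.4 and 48.9 FPKM with the inhibitor against 78.9, 72.7 and 66.7 FPKM in vehicle cells. All libraries with the inhibitor were below all libraries without it. It fell by 0.54 ± 0.07 in Dox cells (adjusted p = 0.00016) and by 0.57 ± 0.07 without Dox (adjusted p = 9.8e-05). HSPA1A averaged 93.0 ± 8.53 FPKM in Dox plus inhibitor and 104 ± 4.90 FPKM in Dox cells (-0.17 ± 0.09, adjusted p = 0.19), and 96.0 ± 10.6 FPKM with the inhibitor against 126 ± 9.47 FPKM in vehicle cells (-0.39 ± 0.09, adjusted p = 0.0059). Summed, the pair averaged 139 ± 10.9 FPKM against 171 ± 7.40 FPKM in the first comparison (-0.31 ± 0.08, adjusted p = 0.011) and 144 ± 10.3 FPKM against 198 ± 15.6 FPKM in the second (-0.45 ± 0.08, adjusted p = 0.00091).

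HSPA4 and HSPH1, the HSP110 proteins that exchange nucleotides on HSP70, were not called with the inhibitor in either setting. HSPA4 averaged 72.2 ± 2.02 FPKM in Dox plus inhibitor cells against 59.8 ± 5.51 FPKM with the inhibitor (0.27 ± 0.08, adjusted p = 0.03). That call ended under both rescalings, without inhibitor replicate 1 or 2 or any 1 Dox plus inhibitor library (0.20 to 0.34), and after removal of the GC and length trend (0.05, adjusted p = 0.44). HSPH1, with 40.0% GC, averaged 33.0 to 42.7 FPKM over the groups, and its replicate 1 was at 0.62 of the other replicates in both inhibitor and vehicle cells.

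With the inhibitor alone, the small heat shock genes HSPB8 and CRYAB had the largest changes of the 41, in opposite directions. HSPB8 and CRYAB encode holdases, which keep unfolded proteins from aggregating without the use of ATP, and the HSPB8 protein works with BAG3 in the autophagy of such proteins. HSPB8 stood at 26.1, 29.4 and 26.4 FPKM in Dox plus inhibitor cells, 46.4, 49.0 and 45.3 FPKM in Dox cells, 16.6, 15.1 and 15.3 FPKM with the inhibitor and 31.6, 29.95 and 28.2 FPKM in vehicle cells. The Dox libraries were the highest and the inhibitor libraries the lowest. Only the Dox plus inhibitor and vehicle groups overlapped.

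HSPB8 was called in all 4 comparisons and under every alternative tried. Dox raised it by 0.76 ± 0.07 in the presence of the inhibitor (adjusted p = 3.9e-05) and by 0.63 ± 0.07 against vehicle (adjusted p = 6.3e-05). The inhibitor lowered it, with a log2 change of -0.76 ± 0.07 in Dox cells (adjusted p = 7.6e-06) and -0.89 ± 0.07 without Dox (adjusted p = 2.1e-06). The interaction was 0.13 ± 0.09 (adjusted p = 0.63).

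CRYAB, the gene of alpha B-crystallin, rose more than any other of the 41 with the inhibitor alone. It stood at 134, 140 and 134 FPKM in Dox plus inhibitor cells, 104, 121 and 119 FPKM in Dox cells, 255, 230.1 and 210.4 FPKM with the inhibitor and 114, 99.5 and 88.3 FPKM in vehicle cells. The inhibitor libraries lay above all others, and the Dox and vehicle libraries overlapped. The change with the inhibitor was 1.20 ± 0.10 without Dox (adjusted p = 4.3e-06), a ratio of the FPKM means of 2.31, and 0.24 ± 0.10 in Dox cells (adjusted p = 0.079), where it passed after median-ratio scaling (0.33, adjusted p = 0.027). Dox gave -0.76 ± 0.10 in the presence of the inhibitor (adjusted p = 0.00051) and 0.19 ± 0.10 without it (adjusted p = 0.2). The interaction of -0.96 ± 0.14 passed the threshold (adjusted p = 0.0035), and it passed under all 24 alternatives in which it was fitted (-1.05 to -0.87). HSPB2, another small heat shock gene, averaged 7.77 ± 1.41 FPKM in Dox plus inhibitor cells and 10.6 ± 0.347 FPKM with the inhibitor (-0.42 ± 0.13, adjusted p = 0.042), and its call ended after removal of the GC and length trend (-0.36, adjusted p = 0.058).

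HSPB1, the gene of HSP27, averaged 380 ± 26.8 FPKM in Dox plus inhibitor, 355 ± 24.3 FPKM in Dox, 411 ± 59.5 FPKM in inhibitor and 453 ± 56.0 FPKM in vehicle cells. Its change for Dox against vehicle, -0.35 ± 0.11, missed the threshold (adjusted p = 0.061) and passed after median-ratio scaling (-0.41, adjusted p = 0.033).

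**Figure D5:**
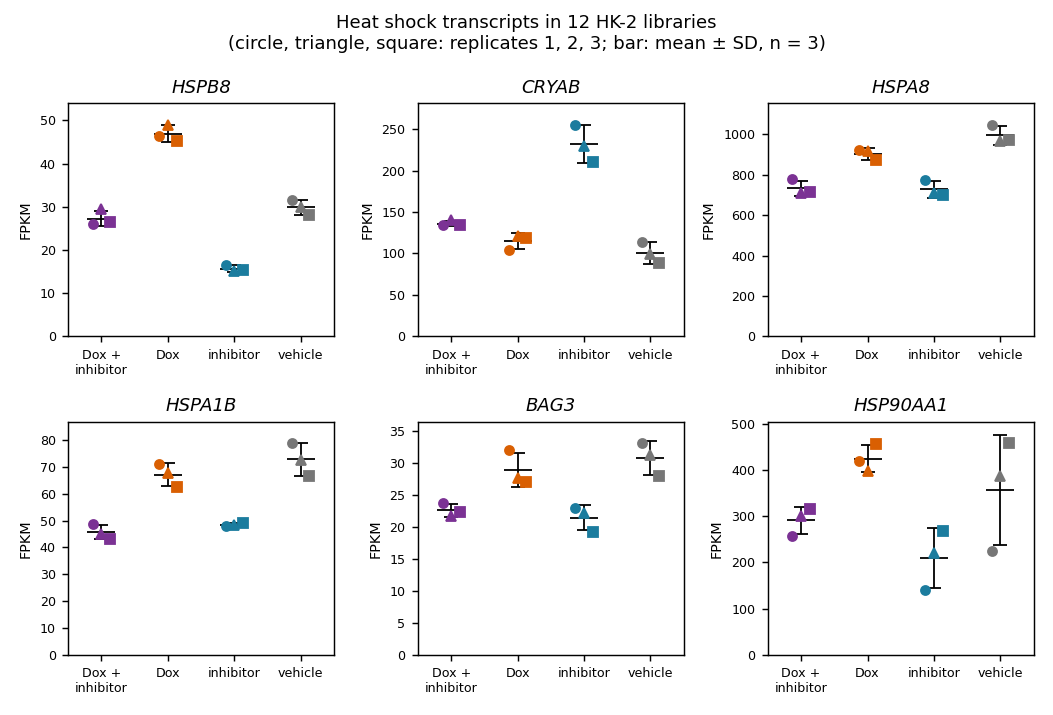
FPKM of HSPB8, CRYAB, HSPA8, HSPA1B, BAG3 and HSP90AA1 in the 12 libraries, with Dox plus inhibitor, Dox, inhibitor and vehicle from left to right; symbols are replicates and bars the mean ± SD of 3 libraries. HSPB8 averaged 46.9 FPKM in Dox cells and 15.7 FPKM in inhibitor cells, CRYAB stands out at 232 FPKM in inhibitor cells, and replicate 1 of HSP90AA1 is low in inhibitor and vehicle cells.

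The cytosolic HSP90 genes, whose products fold kinases and steroid receptors, were both lower with the inhibitor alone. HSP90AA1, the inducible form, stood at 258, 299.8 and 315 FPKM in Dox plus inhibitor cells, 419, 398 and 457 FPKM in Dox cells, 141, 221 and 267 FPKM with the inhibitor and 225, 387 and 458 FPKM in vehicle cells. The inhibitor and vehicle libraries overlapped through replicate 1 of the vehicle group. The inhibitor change was -0.75 ± 0.26 without Dox (adjusted p = 0.038) and -0.79 without replicate 1 of all groups (adjusted p = 0.00071). In Dox cells it was -0.55 ± 0.26 (adjusted p = 0.13), and -0.47 without replicate 1 (adjusted p = 0.01). The call without Dox ended under both rescalings and when any 1 of vehicle replicate 2 or 3, the 3 Dox libraries, inhibitor replicate 1 or 2 or Dox plus inhibitor replicate 2 was left out (-1.05 to -0.49).

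HSP90AB1, the constitutive form, was highest in vehicle cells. It averaged 632 ± 26.1 FPKM in Dox plus inhibitor cells, 643 ± 21.7 FPKM in Dox cells, 636 ± 28.3 FPKM with the inhibitor and 757 ± 34.4 FPKM in vehicle cells. It fell with the inhibitor alone (-0.25 ± 0.06, adjusted p = 0.0046), which missed the threshold after median-ratio scaling (-0.13, adjusted p = 0.12), and with Dox alone (-0.24 ± 0.06, adjusted p = 0.013), a call that ended without Dox replicate 3 (adjusted p = 0.062). With either agent present the other gave no call (-0.02 ± 0.06 and -0.01 ± 0.06), and the interaction of 0.23 ± 0.08 missed the threshold (adjusted p = 0.19) without a replicate block.

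BAG3, a cochaperone that binds HSP70 and the small heat shock proteins, fell with the inhibitor. It stood at 23.7, 21.7 and 22.3 FPKM in Dox plus inhibitor cells against 32.0, 27.7 and 27.0 FPKM in Dox cells, and at 23.0, 22.1 and 19.2 FPKM with the inhibitor against 33.1, 31.2 and 27.9 FPKM in vehicle cells. The libraries with the inhibitor were all below those without it. The change was -0.34 ± 0.09 in Dox cells (adjusted p = 0.012) and -0.50 ± 0.09 without Dox (adjusted p = 0.0011). The call in Dox cells ended after median-ratio scaling (-0.26, adjusted p = 0.052) and without Dox replicate 1 (values without 1 library between -0.39 and -0.27).

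The HSP40 genes, whose products bring substrates to HSP70, were lower with the inhibitor where they passed. DNAJB1 averaged 49.9 ± 5.07 FPKM in Dox plus inhibitor cells against 59.3 ± 0.735 FPKM in Dox cells (-0.25 ± 0.09, adjusted p = 0.044), and 50.5 ± 5.28 FPKM with the inhibitor against 64.1 ± 4.27 FPKM in vehicle cells (-0.34 ± 0.09, adjusted p = 0.0088). Both DNAJB1 calls ended after median-ratio scaling (-0.17 and -0.22), and the first also without vehicle replicate 2, inhibitor replicate 2, any 1 Dox library or Dox plus inhibitor replicate 2 or 3 (-0.33 to -0.20). DNAJA1 averaged 114 ± 10.9 FPKM with the inhibitor against 141 ± 17.9 FPKM in vehicle cells (-0.30 ± 0.09, adjusted p = 0.024). The groups overlapped, and the call ended under both rescalings, after removal of the GC and length trend (-0.13, adjusted p = 0.095), and without vehicle replicate 2 or 3 or inhibitor replicate 1 or 2 (-0.40 to -0.22). DNAJB4, which at 37.0% had the lowest GC content of the 41, averaged 10.8 ± 2.26 FPKM with the inhibitor and 16.7 ± 5.46 FPKM in vehicle cells (-0.55 ± 0.21, adjusted p = 0.059), and passed without replicate 1 of all groups (-0.67, adjusted p = 0.0022).

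Of the 3 mitochondrial chaperones HSPA9 alone was called. HSPA9, the HSP70 of the matrix, averaged 93.3 ± 3.5 FPKM with the inhibitor against 104 ± 3.6 FPKM in vehicle cells (-0.15 ± 0.05, adjusted p = 0.025). That call ended under both rescalings and without vehicle replicate 2 or 3 or inhibitor replicate 1 (-0.18 to -0.12), and the sign turned after removal of the GC and length trend (0.02, adjusted p = 0.75). HSPD1 and HSPE1, the chaperonin HSP60 and its cofactor HSP10, averaged 374 to 461 FPKM and 261 to 299 FPKM over the groups and were called in none of the 4 comparisons. Without replicate 1 of all groups both were called lower with the inhibitor alone (-0.31, adjusted p = 0.0068, and -0.26, adjusted p = 0.0016). The annotation names 17 pseudogenes of HSPD1 and 26 of HSPE1.

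Over all 41 genes, 25 were called in at least 1 of the 4 comparisons and 16 in none, beside 53.0% of all tested genes called in at least 1. Summed FPKM of the 18 heat shock genes lay between 3451 and 3624 in Dox plus inhibitor, 3851 and 3971 in Dox, 3396 and 3465 in inhibitor and 4072 and 4214 in vehicle cells. The libraries with the inhibitor were therefore all below those without it. The 23 ER genes summed to 2899 to 3041, 2857 to 2880, 2775 to 2915 and 2728 to 2778 FPKM in the same order of groups. FPKM are relative to the library, so a lower level and a larger pool of other transcripts cannot be told apart.

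Further genes of the same pathways were counted from lists of 177 symbols, of which 162 were tested. With the inhibitor 12 were higher and 37 lower in Dox cells, and 10 higher and 44 lower without Dox. Their shares lower lay near the 20.8% and 26.3% of all tested genes. After median-ratio scaling these were 22 and 12, and 25 and 20, so that the balance turned with the scaling. With Dox 17 were higher and 5 lower in the presence of the inhibitor (12.2% and 6.06% of all tested genes), and 14 higher and 11 lower without it (10.6% and 7.31%), where scaling gave 7 and 11, and 9 and 21. The lists below stand beside 20.8% of all tested genes lower and 11.3% higher with the inhibitor in Dox cells, and 26.3% and 11.7% without Dox. Among 33 other ER folding and oxidation genes 5 were higher and 3 lower with the inhibitor in each setting, and 11 and 0 in Dox cells and 9 and 1 without Dox after scaling. PDIA5, a disulfide isomerase, averaged 36.1 ± 1.38 FPKM in Dox plus inhibitor cells against 21.5 ± 0.978 FPKM in Dox cells (0.72 ± 0.07, adjusted p = 1.6e-05), and rose by 0.49 ± 0.07 without Dox (adjusted p = 0.00027). FKBP14, a prolyl isomerase of the ER, rose by 0.65 ± 0.09 with the inhibitor in Dox cells (adjusted p = 0.00026). FKBP10, its relative, fell by 0.32 ± 0.06 with Dox in the presence of the inhibitor and by 0.46 ± 0.06 against vehicle (adjusted p = 0.0047 and 0.0003).

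Of 14 tested genes of the PERK and ATF4 branch, 5 were lower and 0 higher with the inhibitor in Dox cells, beside 20.8% and 11.3% of all tested genes. Without Dox 8 were lower and 1 higher, beside 26.3% and 11.7%. After median-ratio scaling these were 4 and 1 in Dox cells, and 7 and 2 without Dox. DDIT3, which encodes the transcription factor CHOP, averaged 25.5 ± 0.85 FPKM in Dox plus inhibitor, 67.3 ± 2.51 FPKM in Dox, 19.2 ± 0.438 FPKM in inhibitor and 34.6 ± 2.75 FPKM in vehicle cells. Dox raised it by 0.94 ± 0.06 against vehicle (adjusted p = 2.3e-06), and the change with the inhibitor was -1.36 ± 0.06 in Dox cells (adjusted p = 5.3e-08) and -0.82 ± 0.06 without Dox (adjusted p = 2.2e-06). CEBPB, a partner of CHOP, fell by 1.32 ± 0.21 and 1.01 ± 0.21 with the inhibitor (adjusted p = 0.00057 and 0.0027), and PPP1R15A, the phosphatase subunit GADD34 that reverses PERK signalling, fell by 0.70 ± 0.10 with the inhibitor in Dox cells (adjusted p = 0.00027). NUPR1, a stress-induced cofactor, was low, at 4.1 ± 0.811 FPKM in Dox plus inhibitor, 3.22 ± 0.166 FPKM in Dox, 4.6 ± 0.707 FPKM in inhibitor and 1.62 ± 0.304 FPKM in vehicle cells. It rose with the inhibitor alone (1.1 ± 0.13, adjusted p = 7.5e-05) and with Dox alone (0.69 ± 0.13, adjusted p = 0.0036).

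Of 11 tested regulators of the unfolded protein response, 4 were lower with the inhibitor in Dox cells and 7 without Dox, beside 20.8% and 26.3% of all tested genes, which became 1 and 2 after median-ratio scaling. CREB3L1, an ER-anchored transcription factor related to ATF6, averaged 13.2 ± 0.0551 FPKM in Dox plus inhibitor cells, 20.8 ± 0.512 FPKM in Dox cells, 10.7 ± 0.892 FPKM with the inhibitor and 25.4 ± 3.51 FPKM in vehicle cells. It fell by 1.17 ± 0.09 with the inhibitor alone (adjusted p = 2.6e-06).

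The remaining lists stand beside the same shares, in which lower calls outnumber higher ones over all tested genes too. Of 23 other cytosolic cochaperones, 9 were lower and 1 higher with the inhibitor in Dox cells and 8 lower and 0 higher without Dox, and 3 lower and 3 higher and 4 lower and 1 higher after median-ratio scaling. Of 15 mitochondrial chaperones and proteases 8 were lower with the inhibitor in Dox cells and 6 without Dox, and 4 and 3 after median-ratio scaling. In the same list 4 were higher with Dox in each setting. Over all tested genes 12.2% were higher with Dox in the presence of the inhibitor and 10.6% without it. After median-ratio scaling the counts were 2 and 3, beside 635 and 999 over all tested genes. CLPX, the unfoldase of a matrix protease, was among those higher in the presence of the inhibitor (0.55 ± 0.10, adjusted p = 0.0038). Of 14 chaperonin and prefoldin subunits 2 were lower and 1 higher with the inhibitor in Dox cells, and 4 lower and 0 higher without Dox, which turned to 0 lower and 1 higher, and 1 lower and 2 higher, after scaling. Of 24 further degradation genes 3 were lower and 2 higher with the inhibitor in each setting, which turned to 0 lower and 3 higher in Dox cells, and 2 lower and 5 higher without Dox, after scaling. Of 17 translocon and signal peptidase genes 1 was lower with the inhibitor in Dox cells and 3 without Dox, and 0 in both after scaling, while SPCS3, a signal peptidase subunit, was higher with Dox (0.62 ± 0.15 in the presence of the inhibitor, adjusted p = 0.017, and 0.59 ± 0.15 without it, adjusted p = 0.018), and by 0.26 in both after removal of the GC and length trend. Of 11 other heat shock genes 3 were higher and 2 lower with the inhibitor in Dox cells and 2 higher and 2 lower without Dox, and 3 and 0, and 5 and 0 after scaling. HSBP1, which encodes a binding protein of HSF1, rose by 0.49 ± 0.05 with the inhibitor alone (adjusted p = 3.3e-05), and HSPA2 by 0.63 ± 0.10 with the inhibitor in Dox cells (adjusted p = 0.0006).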

How the data were processed

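Per the labels' protocols, RNA was extracted with TRIzol, checked on a Bioanalyzer and made into stranded TruSeq mRNA libraries. The authors deposited FPKM values for 26334 gene symbols in 12 libraries. Trim Galore 0.6.7, Salmon 1.9.0, GRCh38.p13 and hg38 are listed, per the submitters' processing notes, and how FPKM was derived is not given in the sources used here. No read counts were used, so precision rests on the replicates.

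Values were analysed as log2(FPKM + 1), which understates changes of low genes, for 12649 genes with at least 1 FPKM in at least 3 libraries. Means of the 4 groups were fitted in limma 3.58.1 (R 4.3.3, Python 3.11.15; 8 residual degrees of freedom, empirical Bayes with intensity trend), with two-sided p-values adjusted over all tested genes by the Benjamini-Hochberg method and a threshold of 0.05. All adjusted p-values are limma's, and the scripts were tested on simulated data. Alternatives were median-ratio scaling and quantile normalization (the rescalings), a pseudocount of 0.1, no filter, a mean of at least 5 FPKM, no intensity trend, only the compared groups, each library left out, a replicate block, HSPA1A and HSPA1B summed, and removal of the trend on GC and length (94.8% of tested genes had both, from GENCODE). Leaving out replicate 1 of vehicle and inhibitor, or of all groups, was chosen after seeing the data. Deviations of same-numbered libraries correlated at 0.549, 0.133 and 0.337 between Dox plus inhibitor and inhibitor cells. As all lay above 0.1, these were taken as paired from the data, since the labels name no shared day or culture. The cut is arbitrary, and Dox plus inhibitor replicate 2 correlated as well with inhibitor replicate 3 (0.138). Pairing and the shared GC trend of replicates 1 and 3 cannot be told apart, so the blocked calls stand as an alternative only.

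The members and lists were chosen with earlier results of these data known. Values per library are given for genes called in at least 1 of the 4 comparisons with a log2 change of at least 0.5 in size and for HSPA5, XBP1, ATF6, ERN1, EIF2AK3 and HSF1. HYOU1, SDF2L1 and HSPA8 were added to these after their values were seen. From the further lists, at most the 3 largest called changes per direction and comparison were named. Promoters came from RefSeq, where 37 of the 41 genes matched. PDIA3, DERL1, HSF1 and CRYAB did not.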

Additional observations from a re-analysis of the deposited data

Results flagged for a closer look

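Among the 41 genes and the further lists, 4 genes had a Dox effect that differed with and without the inhibitor by the interaction test in limma, where 0.909% of all tested genes were called higher and 1.91% lower. CRYAB had an interaction of -0.96 ± 0.14 (adjusted p = 0.0035): Dox gave -0.76 in the presence of the inhibitor and 0.19 without it, and the 3 Dox plus inhibitor libraries lay below the 3 inhibitor libraries. DDIT3 had -0.54 ± 0.09 (adjusted p = 0.0059), with 3 of 3 Dox libraries above all vehicle libraries and 3 of 3 Dox plus inhibitor libraries above all inhibitor libraries. NUPR1 had -0.83 ± 0.18 (adjusted p = 0.035) at levels below 6 FPKM in all libraries. CREB3L1 had 0.55 ± 0.12 (adjusted p = 0.04), and the call ended after median-ratio scaling, which left 0 of the 11 regulators called higher. After removal of the GC and length trend these values were -0.97, -0.57, -0.83 and 0.58.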

How the results depend on the processing

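Of the calls among the 41 genes, 2 of 7 for Dox against vehicle (XBP1 and HSPB8), 4 of 10 for Dox with inhibitor against inhibitor (HERPUD1, SDF2L1, HSPB8 and CRYAB), 9 of 18 for inhibitor against vehicle (HSPA5, HERPUD1, EDEM1, HSPA1A, HSPA1B, HSPA8, HSPB8, CRYAB and BAG3), 7 of 10 for inhibitor with Dox against Dox (PDIA4, PDIA6, HERPUD1, HYOU1, HSPA1B, HSPA8 and HSPB8) and 1 of 1 for the interaction (CRYAB) passed under every alternative. The sign turned only for HSPA9 with the inhibitor alone, at 0.02 after removal of the GC and length trend without and with the replicate block. With only the compared groups fitted, the calls of CANX, ATF6 and EDEM1 ended for Dox against vehicle. Those of CANX, DNAJB11, XBP1, EIF2AK3 and HSPA4 ended for Dox with inhibitor against inhibitor. Those of PDIA4, HYOU1, HSPA9, HSP90AA1 and DNAJA1 ended for inhibitor against vehicle. For the calls that ended, the cause was not tested.

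Counts of the 41 that moved by over 1.5 times were as follows. For Dox against vehicle, the higher count of 4 became 1 with median-ratio scaling, 1 with only the compared groups, 9 with the block and 7 with trend removal and block, and ran from 1 to 6 with 1 library left out. Its lower count of 3 became 10 with median-ratio scaling, 7 with quantile normalization, 9 with the block, 12 with trend removal and 13 with trend removal and block, and ran from 1 to 7 with 1 library left out. For Dox with inhibitor against inhibitor, the higher count of 6 became 3 with median-ratio scaling, 12 with the block, 2 with only the compared groups, 2 with trend removal and 2 with both trend removal and block, and ran from 3 to 7 with 1 library left out. Its lower count of 4 became 8 with trend removal and block, and ran from 3 to 5. For inhibitor against vehicle, the higher count of 6 became 11 with median-ratio scaling, 11 with trend removal and 12 with trend removal and block, and ran from 4 to 8 with 1 library left out, and the lower count of 12 became 6 with median-ratio scaling and ran from 9 to 16. For inhibitor with Dox against Dox, the higher count of 5 became 9 with median-ratio scaling, 10 with quantile normalization, 8 with only the compared groups, 9 with trend removal, 11 with trend removal and block and 8 without replicate 1 of vehicle and inhibitor, and ran from 4 to 7. Its lower count of 5 became 3 with median-ratio scaling, 9 without replicate 1 of vehicle and inhibitor and 10 without replicate 1 of all groups, and ran from 3 to 6. For the interaction, the higher count of 0 became 1 with the block (HSP90AB1, 0.23, adjusted p = 0.013) and 2 with trend removal and block, and the lower count of 1 became 2 with trend removal, 3 with trend removal plus block and 2 when replicate 1 was left out of all groups, and ran from 1 to 2 with 1 library left out.

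Same-numbered deviations correlated at 0.017, -0.072 and 0.198 for Dox against vehicle, 0.686, 0.097 and 0.505 for inhibitor against vehicle and 0.135, -0.09 and 0.077 for inhibitor with Dox against Dox. Each comparison had a value below 0.1, so these libraries were not taken as paired. For inhibitor against vehicle this rests on 0.097 alone, while replicates 1 and 3 correlated more than in the comparison taken as paired. In none of the 4 comparisons did every library correlate best with its own number. Over all tested genes the block moved the calls past 1.5 times for Dox against vehicle (3741 in place of 2269), Dox with inhibitor against inhibitor (4548 in place of 2304) and the interaction (666 in place of 357). With only the compared groups, Dox with inhibitor against inhibitor gave 1099 calls, and with 1 library left out its lowest count was 1121, that of Dox against vehicle 1427 and that of the interaction 186. Trend removal gave 848 calls for the interaction, and with the block 1107, and 4029 for Dox against vehicle. Each group had 3 libraries, the read depth is unknown and the replicates had unlike GC trends. In the 4 comparisons the SE was 0.21 for DNAJB4 (37.0% GC), 0.20 for HSPH1 (40.0%), 0.23 for HSP90B1 (43.7%) and 0.26 for HSP90AA1 (44.3%). Other genes of low GC content had smaller SE, such as 0.10 for DNAJB9 (40.4%), 0.05 for ATF6 (41.3%) and 0.08 for HSPA4 (42.5%). The part of GC content in the SE was not tested.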
